A study of Mus musculus with 47 samples.

Results

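The 8 genes described here, Gata1, Klf1, Tal1, Bcl11a, Epor, Alas2, Slc4a1 and Epb42, are regulators, a receptor, an enzyme and membrane proteins of the red cell lineage. They were taken by symbol from the deposited count table, where each symbol names a single gene, and they are 8 of the 20456 genes listed. The RNA came from liver, lung and brain of mouse embryos at E18.5, the day before birth, and was sequenced in 47 libraries. The embryos were homozygous for a missense allele of Daxx, which encodes a histone chaperone, or were wild-type littermates from crosses between heterozygous parents. S226A changes a serine needed to bind histone H3.3, and Y130A changes a tyrosine needed to bind Atrx. Both alleles were made by CRISPR/Cas9 in C57BL/6N zygotes, with founders crossed back to C57BL/6J, and are carried by every cell of the embryo, not by the blood lineage alone, and the strain is labelled C57BL/6. Each tissue of each genotype held 4 libraries (S226A, wild type of S226A litters, Y130A, wild type of Y130A litters), except wild-type lung of Y130A litters with 3. The comparisons address whether transcripts of red cell formation in liver, and of blood in lung and brain, differed between mutants and their littermates.

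In the fetus, red cells are made in the liver, where precursors divide, accumulate haemoglobin and lose the nucleus, while lung and brain receive them through the circulation. Gata1 binds GATA motifs and works with Tal1, Lmo2 and Ldb1 in a complex at erythroid genes, and Klf1 binds CACCC motifs at globin and membrane genes. The receptor for erythropoietin, Epor, keeps precursors alive, Alas2 carries out the first step of haem synthesis in red cells, Slc4a1 is the band 3 anion exchanger, Epb42 is the membrane skeleton protein 4.2, and Bcl11a represses embryonic and fetal globin genes and is also a transcription factor of neurons and B cells.

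The total count per library was 15722147 to 26190403 in the S226A litters and 36351738 to 54885020 in the Y130A litters, so that the set of litters and the depth cannot be told apart, while each mutant was read against wild types of its own set. Summed markers followed the labelled tissue. Hepatocyte markers had at least 4444400 normalized counts in every liver and at most 38313 in any lung, lung epithelium markers had 200127 to 317017 in lung and at most 1508 elsewhere, and neuron markers had 36610 to 44977 in brain and at most 5755 elsewhere. A normalized count is the read count scaled to a common effective library size of 29553745. Transcripts of squamous epithelium summed to at most 318 normalized counts in 14 livers, but to 31160 in replicate 2 of the wild types of S226A litters and 20761 in replicate 1 of Y130A, and the liver calls of the 8 genes and of the erythroid lists were also read without these livers. Daxx itself had 803 to 1504 normalized counts over all libraries, which does not check the genotypes, because the alleles change a codon.

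All positions are those of GRCm38 in the GENCODE M21 annotation. Gata1 lies on chromosome X (7959260 to 7978071, minus strand), Klf1 on chromosome 8 (84901928 to 84905291, plus), Tal1 on chromosome 4 (115056426 to 115071755, plus) and Bcl11a on chromosome 11 (24078056 to 24174123, plus). Epor lies on chromosome 9 (21958897 to 21963506, minus), Alas2 on chromosome X (150547375 to 150570638, plus), Slc4a1 on chromosome 11 (102348824 to 102366203, minus) and Epb42 on chromosome 2 (121017891 to 121037072, minus). Reads were counted over annotated exons. Alas2 shares 311 exon bases with Apex2 on the opposite strand and 61 with Mir3620, and Bcl11a shares 316 with the antisense gene 4930538E20Rik. Since the strand setting of the counting was not given in the sources used here, reads of these overlaps cannot be assigned to a strand. Apex2, which encodes a DNA repair enzyme, had 866 to 1584 normalized counts in liver, 460 to 767 in lung and 600 to 970 in brain, so that it was far below Alas2 in liver but of the order of Alas2 in brain.

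RefSeq promoter windows on GRCm38.p6 were given for 7 of the 8 genes, 2 of them for Tal1, and Slc4a1 was not among them. The 250 bases before each start were searched on both strands for GATA motifs (AGATAA, also with T as its first base, G as its last base, or both) and for CACCC motifs (CCNCNCCC). A GATA motif was found for 5 genes (Klf1, Tal1, Epor, Alas2 and Epb42), where 26.5% of all 32851 windows held one. A CACCC motif was found for 5 genes (Gata1, Tal1, Bcl11a, Epor and Alas2), against 45.9% of all windows, and both motifs in the same window for Epor and Alas2, against 8.19%. The matches describe letters only and not binding. The windows with a GATA motif are shown, because the proteins of Gata1 and of the complex around Tal1, both among the 8 genes, are known to act through that motif. They are cut before the first annotated exon base, and capitals mark GATA matches (read as TTATC with T or A after it on the strand shown) and, for Epor, CACCC matches, which overlap each other.
Tal1 (chr4:115056176-115056425, plus strand): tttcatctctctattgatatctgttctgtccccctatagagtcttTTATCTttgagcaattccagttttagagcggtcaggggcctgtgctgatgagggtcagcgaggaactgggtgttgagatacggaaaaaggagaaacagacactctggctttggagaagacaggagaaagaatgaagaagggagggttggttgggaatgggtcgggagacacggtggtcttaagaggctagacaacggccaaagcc
Klf1 (chr8:84901732-84901927, plus strand): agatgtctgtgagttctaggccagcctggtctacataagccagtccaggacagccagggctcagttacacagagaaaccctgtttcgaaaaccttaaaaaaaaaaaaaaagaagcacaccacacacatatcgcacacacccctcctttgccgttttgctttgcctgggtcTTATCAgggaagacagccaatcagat
Epor (chr9:21963577-21963826, minus strand): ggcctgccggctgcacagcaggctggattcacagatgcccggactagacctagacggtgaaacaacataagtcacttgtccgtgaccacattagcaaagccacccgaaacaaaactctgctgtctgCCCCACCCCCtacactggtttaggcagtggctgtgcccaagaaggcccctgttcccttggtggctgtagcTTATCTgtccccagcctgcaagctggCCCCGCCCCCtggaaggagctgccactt
Alas2 (chrX:150547167-150547374, plus strand): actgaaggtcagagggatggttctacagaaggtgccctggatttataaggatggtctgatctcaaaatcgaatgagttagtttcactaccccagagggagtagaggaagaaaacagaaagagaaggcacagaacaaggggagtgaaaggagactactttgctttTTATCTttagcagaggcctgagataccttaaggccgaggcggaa
Epb42 (chr2:121037073-121037127, minus strand): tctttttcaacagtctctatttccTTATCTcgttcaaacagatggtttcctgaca
The GATA match of Epor begins 54 bases before the RefSeq start, that of Klf1 80, that of Alas2 86 and that of Tal1 205. For Klf1 and Alas2 the last 54 and 42 bases before that start lie in an annotated exon and were cut. The CACCC matches of Alas2 lie in the bases cut and are not shown. In Epb42 the window shown is short because an annotated exon begins within it.

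Among wild-type livers, the membrane gene Slc4a1 and the haem enzyme Alas2 were the most abundant of the 8 transcripts per length. Levels per length are given in RPKM, reads per kilobase of exon, scaled to library size. Slc4a1 had a median of 667 RPKM over 8 wild-type livers (542 to 778), Alas2 510 (377 to 672), Klf1 88.0 (74.8 to 136) and Epb42 78.4 (64.7 to 95.9). Tal1 had 52.4, Gata1 32.3, Epor 25.1 and Bcl11a 4.95. Each gene lay above the next in this order in 8 of 8 livers, so that the order did not depend on the embryo. The structural and haem genes were thus above all 4 transcription factors except Klf1, which exceeded Epb42.

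In wild-type lung, levels per length (RPKM) had a different order. Alas2 led with a median of 66.7 RPKM over 7 lungs (49.8 to 90.8), above Slc4a1 at 5.95 (4.36 to 18.3) and Tal1 at 3.32 in 7 of 7 lungs. Epor had 0.972, Bcl11a 0.552, Epb42 0.374, Gata1 0.288 and Klf1 0.164, and these lower ranks were less distinct, with Gata1 above Klf1 in 4 of 7 lungs. In wild-type brain, Bcl11a had 9.95 RPKM and Alas2 9.82, and Bcl11a was the higher in 4 of 8 brains, so that their order was not resolved. Tal1 followed at 3.96 RPKM, above Slc4a1 at 0.693 in 8 of 8 brains, while Klf1 (0.203), Epor (0.168), Epb42 (0.0417) and Gata1 (0.0215) were near the limit of detection.

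All 8 genes were higher in wild-type liver than in wild-type lung at an adjusted p below 0.05 (edgeR quasi-likelihood test with Benjamini-Hochberg adjustment), in a comparison where 80.1% of the 16892 genes tested were called and 37.8% of those tested were called higher in liver. The difference was largest for the regulator Klf1, at 4328 against 15.7 normalized counts (log2 fold change 8.09, SE 0.25), followed by Epb42 (7.23), Gata1 (6.58) and Slc4a1 (6.48). It was smaller for Epor (4.63), Tal1 (3.94), Bcl11a (3.10) and Alas2 (2.94, SE 0.22). Against brain, where 87.3% of genes were called, 7 of the 8 were higher in liver (41.8% of all genes) and Bcl11a was lower (45.5%). Gata1 (10.2), Epb42 (10.1), Slc4a1 (9.65), Klf1 (8.94) and Epor (7.26) had the larger log2 fold changes, and Alas2 (5.65) and Tal1 (3.73) the smaller ones. Bcl11a had 1891 normalized counts in liver and 3844 in brain (log2 fold change -1.03, SE 0.11, adjusted p = 5.36e-11), and every wild-type brain lay above every wild-type liver. The liver libraries are shared by both comparisons. Without TMM scaling the median of all genes moved from -0.08 to -0.71 for liver against lung and from -0.08 to -0.66 for liver against brain, and the 8 genes kept these directions and calls.

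Between lung and brain, 84% of genes were called, and 8 of the 8 were among them, 6 higher in lung (41.3% of all genes) and 2 lower (42.8%). Gata1 (log2 fold change 3.62), Slc4a1 (3.16), Epb42 (2.83), Alas2 (2.71) and Epor (2.63) were higher in lung, and Bcl11a was lower (-4.13, SE 0.14). Klf1 (0.84, SE 0.36, adjusted p = 0.0316) and Tal1 (-0.20, SE 0.078, adjusted p = 0.0157) overlapped between the tissues. The Klf1 difference rested on replicate 1 of the wild-type lungs of Y130A litters, since it was 0.21 (adjusted p = 0.634) when that lung was left out. The Klf1 call was also lost without the lungs of S226A litters replicate 1 (0.70, adjusted p = 0.0936) or replicate 2 (0.65, 0.124), without the brains of replicate 3 in the S226A litters (0.68, 0.0825) or in the Y130A litters (0.79, 0.0508), and with only the libraries compared (0.82, 0.119). Without TMM scaling, Tal1 had a log2 fold change of -0.16 and an adjusted p of 0.0773.

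Because liver, lung and brain of the same wild-type embryo were sequenced, the lung and brain levels were also given as a percentage of that embryo's liver. In lung (6 embryos), Alas2 stood at a median of 11.8% (9.45 to 19.2), Bcl11a at 11.3% (5.87 to 15.1) and Tal1 at 6.42% (5.31 to 9.08). Epor was at 3.44% (1.83 to 9.77), Slc4a1 at 0.875% (0.660 to 3.38) and Gata1 at 0.749% (0.601 to 2.72). Epb42 was at 0.435% (0.368 to 2.62) and Klf1 at 0.335% (0.0725 to 0.804). The 8 genes did not share a single ratio, and the range of Alas2 lay wholly above the ranges of Slc4a1, Gata1, Epb42 and Klf1. The adult globin genes, whose RNA persists in circulating red cells, were near Alas2 at 9.96% (Hbb-bt) to 17.9% (Hbb-bs). The embryonic globins were not, at 36.8% (Hba-x), 46.9% (Hbb-y) and 1.12% (Hbb-bh1). A list of 15 red cell membrane and cytoskeleton genes had a median of 1.16%, near Slc4a1, but spanned 0.351% to 35.8%.

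In brain (8 embryos), Bcl11a was at 204% of liver (179 to 267), Tal1 at 7.50% (5.65 to 9.75) and Alas2 at 1.96% (1.41 to 2.42). Epor was at 0.633%, Klf1 at 0.206%, Slc4a1 at 0.104% (0.0397 to 0.222), Gata1 at 0.0655% and Epb42 at 0.0514%. Adult globins were at 1.51% (Hbb-bt) to 3.05% (Hbb-bs), again near Alas2. The red cell membrane and cytoskeleton list had a median of 0.628% (0.0440% to 155%), above that of Slc4a1. Both Tal1 and Bcl11a are known outside the blood, Tal1 in endothelium and in neurons of the midbrain and Bcl11a in cortical and striatal neurons. Hepatocyte markers stood at 0.266% to 0.480% of the liver level over the 16 brains (median 0.373%), above the brain medians of Klf1, Slc4a1, Gata1 and Epb42. Over the 15 lungs they stood at 0.0122% to 0.681% (median 0.0861%), where the highest was replicate 1 of Y130A and the next 0.253%. For this comparison the 8 genes were also set against the mean of the wild-type livers instead of the embryo's own liver. Klf1 then stood at 0.0825% to 0.739% over the 15 lungs, so that its range overlapped that of the hepatocyte markers, as did that of Gata1 (from 0.238%), also without that lung. The ranges of Epb42 (from 0.266%) and Slc4a1 (from 0.656%) overlapped it through that lung alone, in which Slc4a1 was at 1.22%. Epor (from 1.66%), Tal1, Bcl11a and Alas2 (from 6.56%) lay above it. The 7 hepatocyte markers include Ttr and Trf, and expression of the markers by cells of lung or brain was not tested. Their sum therefore cannot be read as a share of liver RNA. The part of liver RNA in the lung and brain values was not tested.

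**Figure D1:**
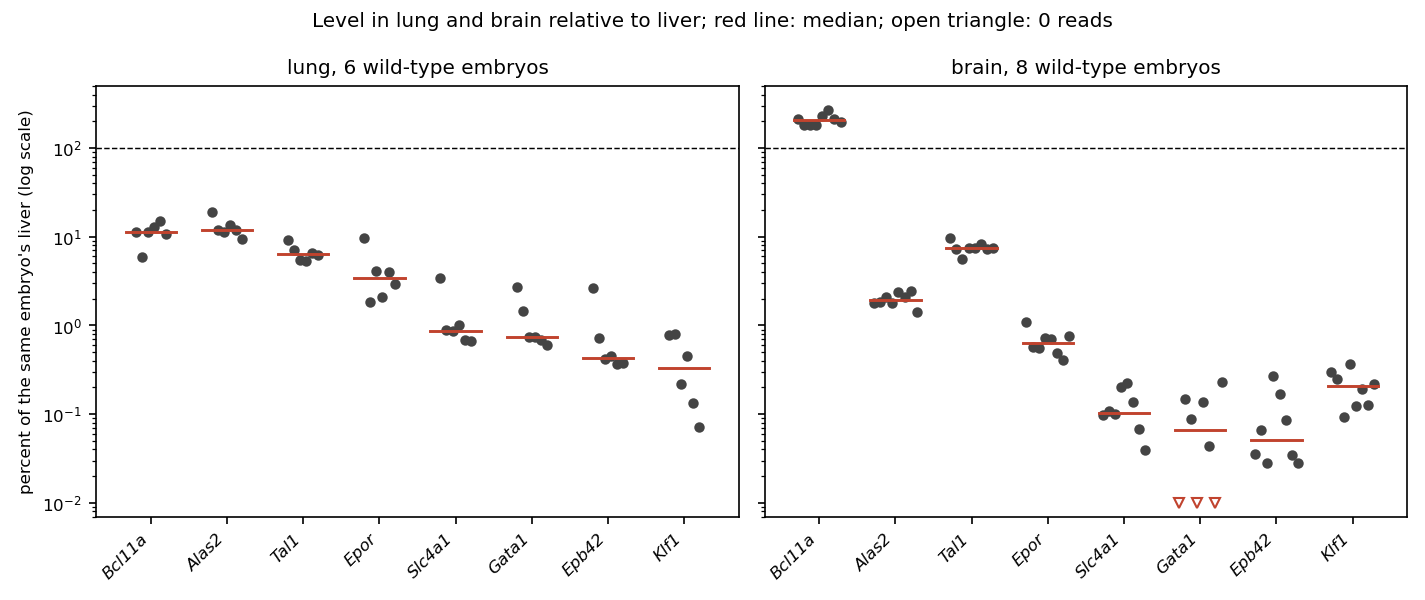
Percent of the same wild-type embryo's liver level (log scale) for the 8 genes in lung (6 embryos) and brain (8 embryos), with points for embryos, red lines for medians, a dashed line at 100% and open triangles for embryos with 0 reads. Alas2 lies near 11.8% in lung and 1.96% in brain, Slc4a1 near 0.875% and 0.104%, and Bcl11a in brain at 179% to 267%.

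In S226A liver, all 8 genes had log2 fold changes below 0 against wild-type littermates, with a median of -0.30, while the median of all genes tested was -0.01. With each library left out in turn 7 of them stayed below 0 and Alas2 reached 0.01. Tal1 was the only one to pass the test, at 1 of 8 genes, where 11.7% of all genes were called and 5.54% were called lower. DESeq2 also called 1, and at an unadjusted p below 0.05 the count was 1 (24.7% of all genes). A share of 1 in 8 is near that background. In bulk RNA, fewer cells of a type and less RNA per cell cannot be told apart. The p-values rest on a model over liver, lung and brain together. The spread of a gene between embryos in lung and brain therefore enters them, and not the spread between livers alone. A fit of the livers alone is given below.

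The regulators come first. Tal1, a core factor of the erythroid complex, had 5354, 6881, 6924 and 6682 normalized counts in the wild types of S226A litters and 5056, 5989, 4976 and 4392 in S226A livers. The mutants were the lower group, but the lowest wild type lay among them, so the groups overlapped. Tal1 fell by 0.34 on the log2 scale (SE 0.099, 95% confidence interval -0.54 to -0.14, adjusted p = 0.0183), and the mutant was below the wild type in 4 of 4 litters, with log2 differences of -0.61 to -0.083. The call was lost when wild-type liver 2 (-0.31, adjusted p = 0.0575), wild-type liver 3 (-0.31, 0.0602) or S226A liver 4 (-0.27, 0.0925) was left out, without TMM scaling (-0.29, 0.0637) and without the livers with squamous transcripts (log2 fold change -0.31, adjusted p = 0.0593).

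Gata1 had 1679, 2472, 2372 and 2313 normalized counts in wild-type and 1600, 2303, 1723 and 1353 in S226A livers. Each mutant was below its own littermate, although the groups overlapped, and the log2 fold change was -0.34 (SE 0.22, adjusted p = 0.376). Klf1, the activator of adult beta globin, had 3703, 3966, 3381 and 3543 against 2690, 3812, 3602 and 2510 normalized counts, with a log2 fold change of -0.21 (SE 0.21, adjusted p = 0.604). Here 2 mutants lay below every wild type and the other 2 among them. Bcl11a had 1889, 2148, 2347 and 2125 in wild-type and 1814, 1997, 1682 and 1314 in S226A livers, which is a log2 fold change of -0.32 (SE 0.16, adjusted p = 0.218), lower in 4 of 4 litters with the groups overlapping.

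For the receptor, Epor had 1134, 1523, 1676 and 1518 normalized counts in wild-type and 1156, 1611, 1366 and 1161 in S226A livers. The groups were mixed, with the mutant higher in 2 of 4 litters (log2 fold change -0.14, SE 0.22, adjusted p = 0.772). Alas2 was similar, at 26775, 38863, 32704 and 33500 in wild-type and 31139, 27788, 34873 and 30871 in S226A livers (log2 fold change -0.08, SE 0.26, 95% confidence interval -0.62 to 0.45, adjusted p = 0.918). Neither gene separated the groups, and the interval for Alas2 includes changes larger than that of Tal1 in either direction.

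The 2 membrane genes separated the groups. Slc4a1 had 78277, 96278, 96467 and 91219 normalized counts in wild-type and 71414, 72468, 77468 and 71183 in S226A livers. Every S226A liver was below every wild type, as was the case for 2 of the 8 genes, where 5.18% of all genes tested were lower without overlap. The log2 fold change was -0.31, but with an SE of 0.35 and an adjusted p of 0.651. Epb42 had 10355, 12898, 11082 and 10896 in wild-type and 8665, 9556, 9566 and 8947 in S226A livers, again without overlap (log2 fold change -0.30, SE 0.26, adjusted p = 0.528). Both were lower in 4 of 4 litters, with log2 differences of -0.41 to -0.13 for Slc4a1 and -0.43 to -0.21 for Epb42.

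The SE of these membrane genes came from a model over all 3 tissues, in which the spread of a gene in lung and brain enters its single estimate of dispersion. With only the 16 livers fitted, an alternative chosen after seeing the data, the log2 fold changes were nearly the same and the SEs smaller. Slc4a1 then had -0.30 (SE 0.082, adjusted p = 0.0243), Epb42 -0.29 (SE 0.075, adjusted p = 0.0163) and Tal1 -0.34 (SE 0.098, adjusted p = 0.0362). That fit called 3 of the 8 genes lower, where it called 8.61% of all genes and 3.07% as lower. Replicate 2 of the wild types of S226A litters, the liver with squamous transcripts, was the highest for Epb42 and among the highest for Slc4a1, and without the livers with squamous transcripts, in the model over all tissues, 0 of the 8 genes were called (11% of all genes). With both choices, the livers alone and without these livers, 0 were called either (7.54% of all genes, 2.49% lower), at -0.28 for Slc4a1 (adjusted p = 0.0604), -0.23 for Epb42 (0.0799), -0.31 for Tal1 (0.0943) and 0.01 for Alas2 (0.981).

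**Figure D2:**
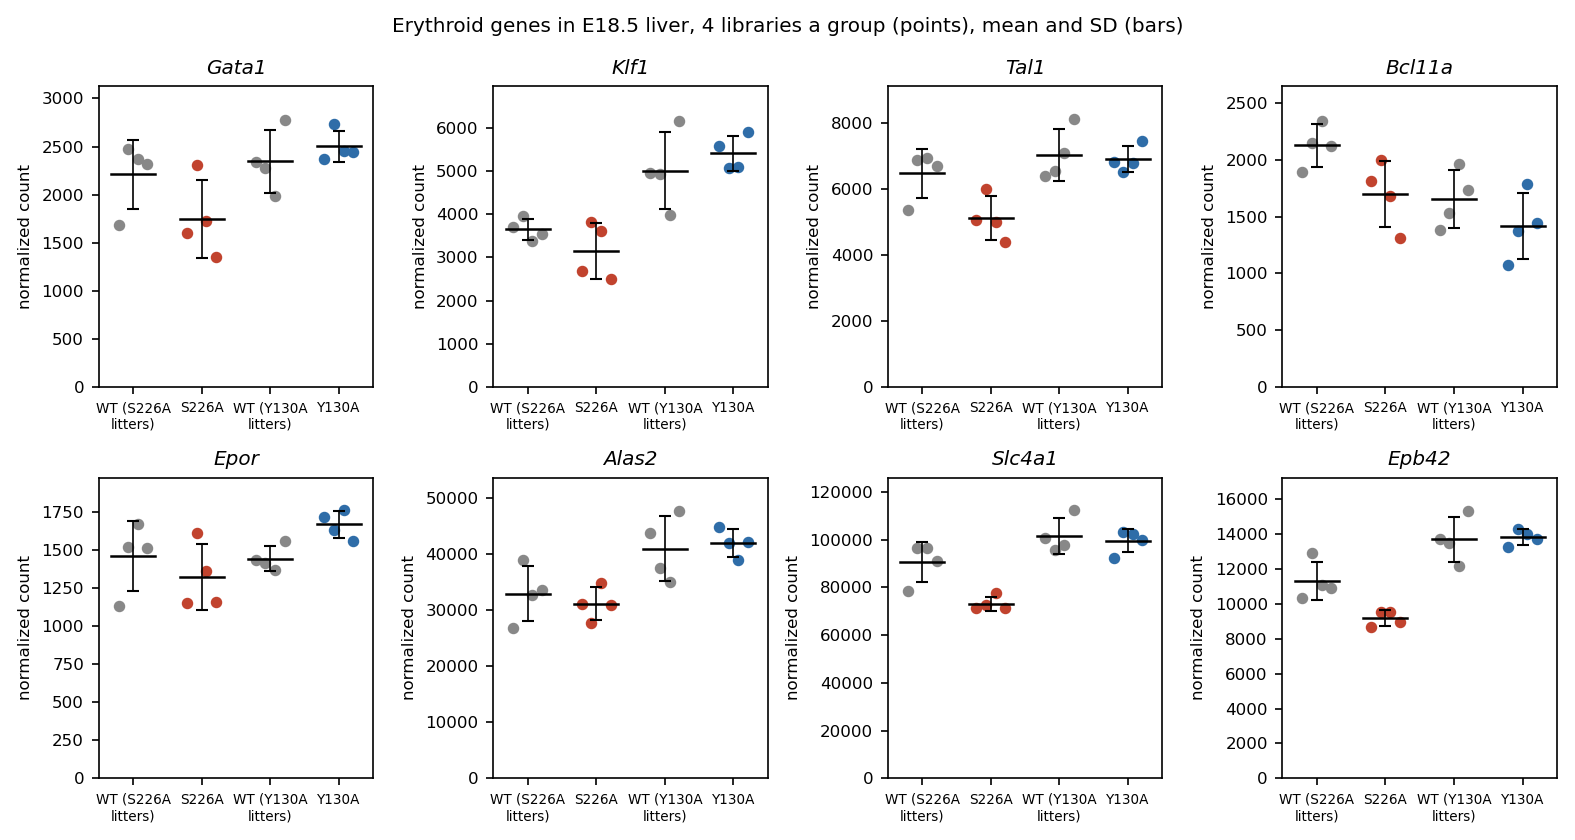
Normalized counts of the 8 genes in E18.5 liver, with points for the 4 libraries of each group and bars for the mean and SD, on linear axes from 0. The S226A livers lie below all wild types of their litters for Slc4a1 (71183 to 77468 against 78277 to 96467) and Epb42, and the groups overlap for the other genes except Epor in the Y130A set.

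Other genes of the pathway were read from 6 lists with 65 genes tested, none of them among the 8. In S226A liver 55 of the 65 had a log2 fold change below 0 (median -0.20), as did 51.6% of all genes, and 7 were called lower and 0 higher, where 5.54% of all genes were called lower. Without the livers with squamous transcripts the 7 became 5. With only the livers fitted, 16 were called lower and 0 higher (3.07% of all genes lower), and in that fit without the livers with squamous transcripts 11 and 0 (2.49%). By groups that did not overlap, 15 of the 65 were lower, where 5.18% of all genes were, and 1 was higher.

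The red cell membrane and cytoskeleton list had 15 of 15 genes below 0 (median -0.31) and 1 called lower, Dmtn, which encodes the actin-bundling protein dematin (log2 fold change -0.38, SE 0.10, adjusted p = 0.0125). Genes of the list that were lower without overlap included Sptb, Ank1, Rhag, Kel and Ermap. Sptb encodes a spectrin, Ank1 the ankyrin that ties band 3 to the spectrin skeleton, and Kel and Ermap carry blood group antigens. Kel had 9497 normalized counts in S226A and 12588 in wild-type livers on average (log2 fold change -0.41, SE 0.26, adjusted p = 0.354, and 0.000754 with only the livers fitted). Without the livers with squamous transcripts Dmtn had -0.31 (adjusted p = 0.0646), and 0 of the 15 were called. In the fit of livers alone 7 of the 15 genes were called lower, among them Kel, Ermap, Sptb, Rhag and Dmtn, and 5 in that fit without the livers with squamous transcripts, among them Kel (-0.39, adjusted p = 0.00436), Ermap, Sptb and Rhag.

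The haem synthesis and iron import list had 13 of 13 genes below 0 (median -0.22) and 2 called lower. Cpox, coproporphyrinogen oxidase of the haem pathway, had 17341 against 22818 normalized counts (log2 fold change -0.40, SE 0.079, adjusted p = 0.000422), and Abcb10, a mitochondrial transporter of erythroid cells, a log2 fold change of -0.27 (SE 0.073, adjusted p = 0.0095). With only the livers fitted Slc25a37, the mitochondrial iron importer mitoferrin, was called too (-0.48, adjusted p = 0.00125), and with the livers with squamous transcripts also left out Slc25a37 and Cpox were called and Abcb10 was not (adjusted p = 0.0893). Alas2, which is not on that list, stood at the weaker end with -0.08. Of 8 late erythroblast genes (median -0.16), Xpo7, a nuclear exportin induced in maturing red cells, was called lower (-0.40, SE 0.095, adjusted p = 0.00312), with -0.24 (adjusted p = 0.0434) without the livers with squamous transcripts. With only the livers fitted Hemgn and Pklr, the red cell and liver pyruvate kinase, were called with it, and with the livers with squamous transcripts also left out Hemgn (-0.34, adjusted p = 0.0145) and Pklr (-0.60, 0.000476) were called and Xpo7 was not (0.118).

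The transcription partners had a median of -0.05 over 12 genes, 4 of them above 0, and 1 called lower, Sox6 (-0.29, SE 0.087, adjusted p = 0.0228), which acts with Bcl11a in globin silencing. The Sox6 call was lost with only the livers fitted (adjusted p = 0.0522), without the livers with squamous transcripts (-0.22, 0.116) and with both choices (0.162). Myb, a factor of early progenitors, was the only gene of the 65 to be higher without overlap, at 2871 against 2453 normalized counts (log2 fold change 0.23, SE 0.12, adjusted p = 0.232). It was not called, and this 1 of 65 was not set against the share of all genes, so it is not read as a result. Erythropoietin signalling had a median of 0.00 over 10 genes and 1 called lower, Bcl2l1, an anti-apoptotic gene of late erythroblasts (-0.25, SE 0.074, adjusted p = 0.0174, and 0.0788 with both choices). Of 7 globins (median -0.16), the embryonic Hba-x was called lower, at 61.5 against 204 normalized counts (log2 fold change -1.73, SE 0.52, adjusted p = 0.0217). The embryonic Hbb-y was lower without overlap, at 73.2 against 206 (-1.49, adjusted p = 0.0535), and was called lower with only the livers fitted (0.0329) and in that fit without the livers with squamous transcripts (0.0409), while the 4 adult globins were between -0.16 and -0.06 with adjusted p-values of at least 0.812.

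**Figure D3:**
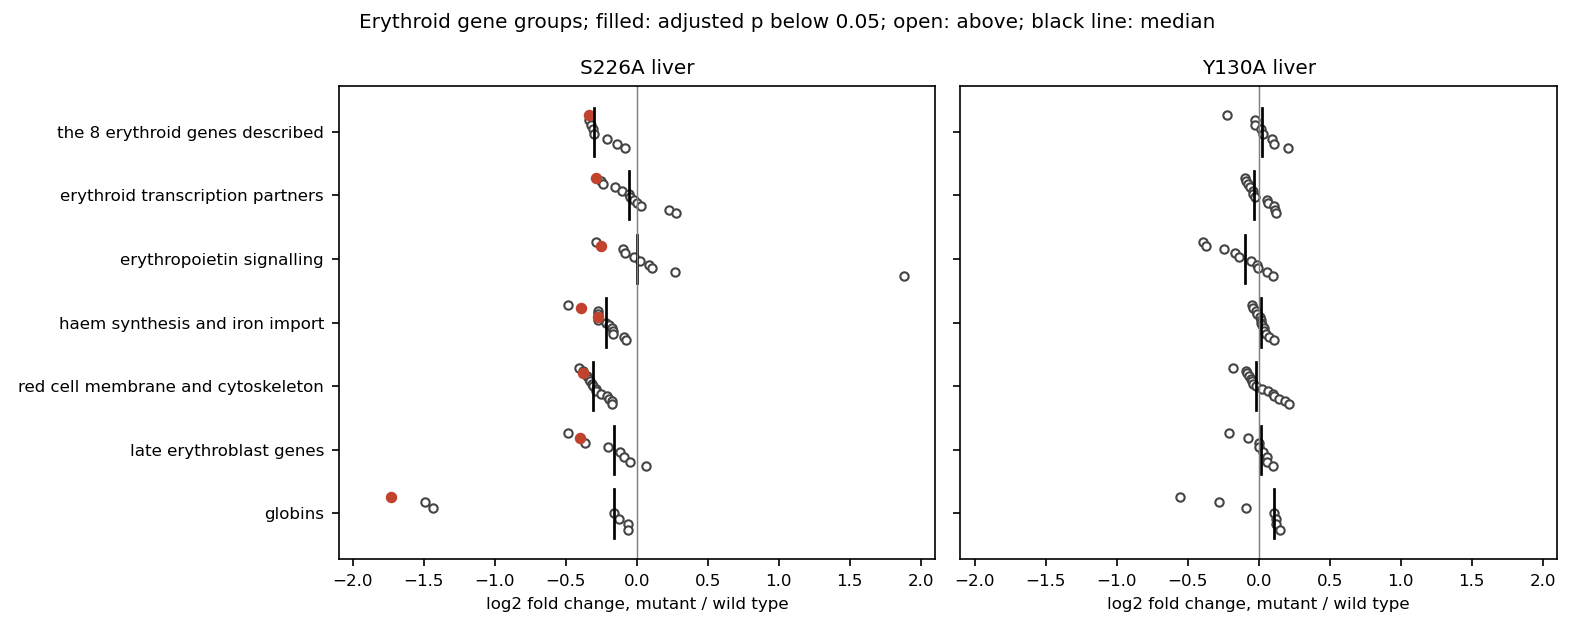
Log2 fold changes, mutant against wild type, of the 8 genes and of 6 lists of erythroid genes in S226A liver (left) and Y130A liver (right), with filled points for an adjusted p below 0.05, open points otherwise and black lines for medians. In S226A liver 55 of the 65 listed genes lie below 0 with a list median of -0.31 for membrane genes, and in Y130A liver 32 of 65 lie below 0 and no point is filled.

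Markers of other cells also moved in S226A liver, where 5.54% of all genes were called lower. Of 8 macrophage markers, 7 were called lower (median log2 fold change -1.49), and their summed level was 10113 to 15702 normalized counts in S226A against 26857 to 30584 in wild-type livers. Macrophages form the centre of erythroblastic islands and clear the nuclei that red cells expel. Of 7 B lineage markers, 4 were lower (median -0.87), and of 7 endothelial markers 2 were lower, Cdh5 and Pecam1 (median -0.18). Squamous markers were lower in 6 of 8, where replicate 2 of the wild types carried the reads. No gene was called among 7 hepatocyte (median -0.23), 9 megakaryocyte (-0.18), 6 mast cell (-0.17), 7 eosinophil (0.75), 7 lung epithelium (0.04) and 8 neuron markers (-0.01). Summed levels were lower without overlap in S226A liver for hepatocyte markers (4444400 to 5106550 against 5260480 to 5413710 normalized counts), endothelial markers (9353 to 11226 against 12042 to 13360), B lineage markers (1565 to 3525 against 4133 to 4848) and neuron markers (2476 to 2610 against 2666 to 3307), and overlapped for the megakaryocyte, mast cell, eosinophil and lung epithelium lists. The part of these cells in the values of the 8 genes was not tested.

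In Y130A liver, no gene of the 8 passed the test, where 0.272% of all genes did. DESeq2 also gave 0, as did an unadjusted p below 0.05 (9.22% of all genes). The log2 fold changes had a median of 0.02, with 5 above and 3 below 0. The values of Y130A liver are listed by replicate, so that wild types and mutants in the same place are not littermates. Tal1 had 6370, 6529, 7088 and 8094 normalized counts in wild types of Y130A litters and 6809, 6510, 6785 and 7438 in Y130A livers (log2 fold change -0.03, SE 0.098, 95% confidence interval -0.23 to 0.17). Slc4a1 had 100533, 95488, 97560 and 112430 against 92443, 103352, 102435 and 99988, fully mixed (-0.03, SE 0.35). Epor was the exception in its pattern, with 1438, 1415, 1369 and 1558 in wild types and 1717, 1632, 1766 and 1563 in Y130A livers. Every Y130A liver was above every wild type, by a narrow margin for the nearest pair, where 1.16% of all genes were higher without overlap, and the mutant was higher in 4 of 4 litters by 0.14 to 0.32. Its log2 fold change was 0.21 (SE 0.22, adjusted p = 0.902).

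Bcl11a had 1386, 1534, 1967 and 1732 in wild types and 1070, 1372, 1783 and 1440 in Y130A livers (log2 fold change -0.22, SE 0.16, adjusted p = 0.796). The groups overlapped, and the mutant was higher in 1 of 4 litters. Gata1 (0.09), Klf1 (0.11), Alas2 (0.03) and Epb42 (0.01) had adjusted p-values of at least 0.976. Of the 65 listed genes, 32 were below 0 (median 0.00), 0 were called in either direction, including 0 in each of the 6 lists, and 0 separated the groups. Macrophage markers in Y130A liver summed to 26758 to 30955 normalized counts, against 29810 to 33618 in wild types.

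The difference between the effects of the 2 alleles was tested as an interaction. In liver it was below 0 for 8 of 8 genes (median -0.31, against -0.01 for all genes), with Bcl11a up to 0.03 when a single library was left out, and 0 passed, where 5.9% of all genes did and 1 of the 8 had an unadjusted p below 0.05 (18.4%). That gene was Tal1, at -0.31 (SE 0.14, adjusted p = 0.211). The largest difference was that of Gata1, at -0.43 (SE 0.31, adjusted p = 0.525). In lung the interaction was also below 0 for 8 of 8 genes (median -0.52, against 0.00 for all genes), but with a single library left out it rose above 0 for Tal1 (up to 0.035), Bcl11a (0.19), Alas2 (0.15) or Epb42 (0.28), and 0 of 8 passed (0.308% of all genes), with 0 at an unadjusted p below 0.05 (9.8%), and in brain 0 of 8 (0.0829%), with 0 unadjusted (2.29%). DESeq2 called 0 in each tissue. A difference between S226A and Y130A liver in these genes was thus not shown, and the 2 sets of litters also differed in depth.

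**Figure D4:**
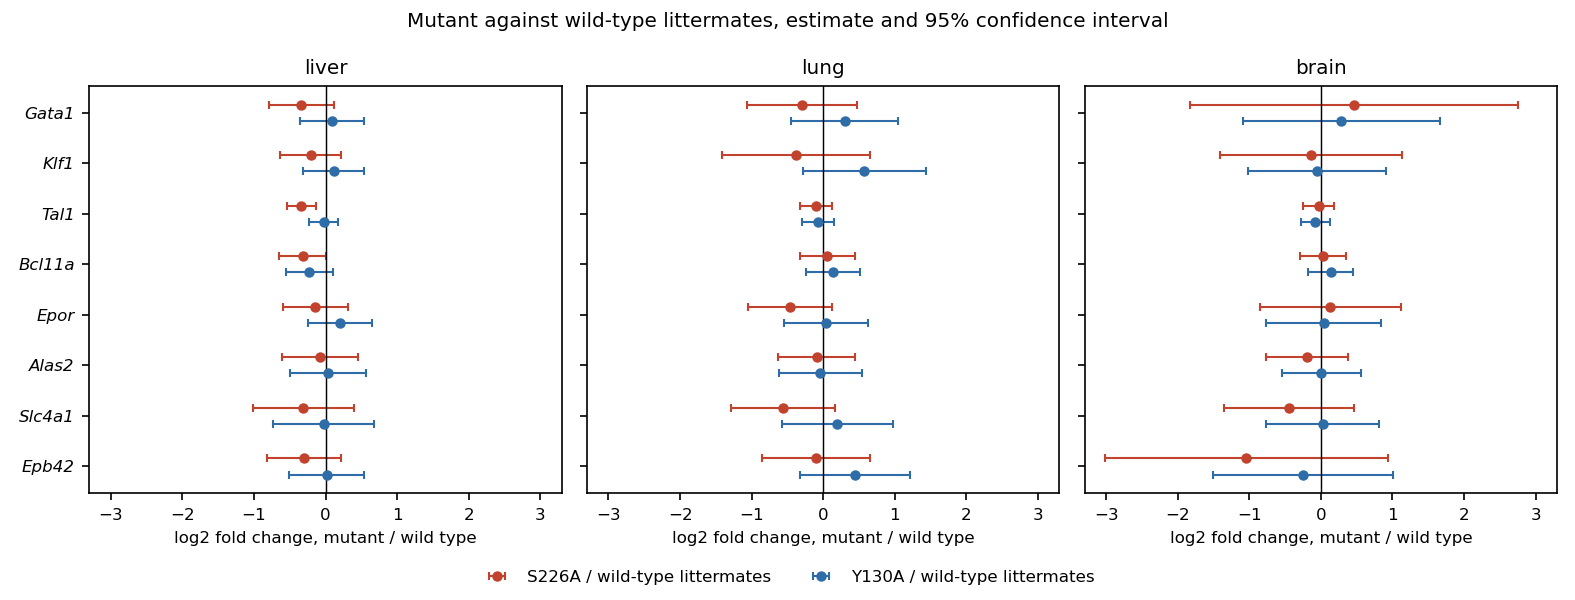
Log2 fold change of each of the 8 genes, mutant against wild-type littermates, with 95% confidence intervals from the fit over all tissues, for S226A (red) and Y130A (blue) in liver, lung and brain. In liver only the interval of Tal1 in S226A (-0.54 to -0.14) lies wholly below 0, and in brain the intervals of Gata1 and Epb42 span several units.

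In S226A lung, 0 of the 8 genes were called (1.88% of all genes), and in Y130A lung 0 (0.0178%), with 0 by DESeq2 in each and 0 at an unadjusted p below 0.05 (16.2% and 2.92%). The groups of 0 genes separated (3.81% and 4.16% of all genes). In S226A lung 7 of 8 log2 fold changes were below 0 (median -0.20) and in Y130A lung 2 of 8 (median 0.17), and the spread between lungs was wide. With a single lung left out, the sign turned in S226A for Klf1, Bcl11a, Alas2 or Epb42 and in Y130A for Tal1, Epor or Alas2. Hepatocyte markers were also below 0 in 7 of 7 in S226A lung (median -0.83, 0 called), and their part in the values was not tested. Slc4a1 had 2649, 859, 827 and 1277 normalized counts in wild types and 773, 757, 1287 and 974 in S226A lungs. The first wild type stood apart at 2649, and the log2 fold change of -0.57 (SE 0.36, adjusted p = 0.458) was -0.06 without it. The same lung was the highest for Epb42, at 272 against 45.9 to 93.0 in the other wild types, while its hepatocyte markers were at 0.0683% of the liver level, below the median lung.

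Alas2 had 5153, 4586, 3670 and 4739 normalized counts in wild-type and 3702, 2425, 6467 and 4424 in S226A lungs (log2 fold change -0.09, SE 0.27). The S226A lungs spanned the whole range of wild types and beyond. In the Y130A set Alas2 had 6451, 5198 and 3540 against 6177, 3826, 3912 and 5742 (log2 fold change -0.04, SE 0.29), and the share of counts on 7 globin genes was 0.255% to 0.662% over all lungs. Epor had 111, 27.9, 69.6 and 108 in wild-type and 47.5, 103, 44.0 and 34.2 in S226A lungs, a log2 fold change of -0.47 (SE 0.29, adjusted p = 0.450). Both groups of Epor held low and high lungs.

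Tal1 varied little between lungs, with 377 to 493 normalized counts in wild-type and 386 to 451 in S226A lungs (log2 fold change -0.10, SE 0.11, 95% confidence interval -0.32 to 0.12), and 405 to 430 against 328 to 444 in the Y130A set (-0.08, SE 0.11). Gata1 rested on 8 to 55 reads per lung and Klf1 on 4 to 47, so that only large changes were detectable, with 95% confidence intervals of -1.06 to 0.47 for Gata1 and -1.41 to 0.66 for Klf1 in S226A. Klf1 varied from 3.57 to 32 normalized counts between lungs, with both ends of that range in the Y130A set. Epb42 in the Y130A set had 50.5 to 69.9 in wild types and 33.2 to 116 in mutants (log2 fold change 0.44, SE 0.38).

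Bcl11a, the globin silencer, had 215, 126, 265 and 371 normalized counts in wild-type and 191, 273, 279 and 267 in S226A lungs. The mutants lay within the wild-type range, with a log2 fold change of 0.06 (SE 0.19, adjusted p = 0.939). The embryonic globins Hba-x (log2 fold change 2.59) and Hbb-y (3.03), and Hbb-bh1 (adjusted p = 0.0184), were called higher in the same lungs, as 3 of the 7 globins (0.852% of all genes were called higher), while the adult globins were not called. Of the other lists, Pim1 of erythropoietin signalling (-0.45, adjusted p = 0.0403) and Steap3, a ferrireductase of erythroid iron uptake (-0.83, adjusted p = 0.0423), were called lower (1.02% of all genes), and 0 genes of the transcription partner, membrane and late erythroblast lists. With only the lungs fitted, Hba-x and Hbb-y were called higher (0.13% of all genes) and 0 of the listed genes lower (0.293%), with adjusted p-values of 0.0529 for Pim1, 0.336 for Steap3 and 0.133 for Hbb-bh1. In Y130A lung 0 of the 65 listed genes were called.

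**Figure D5:**
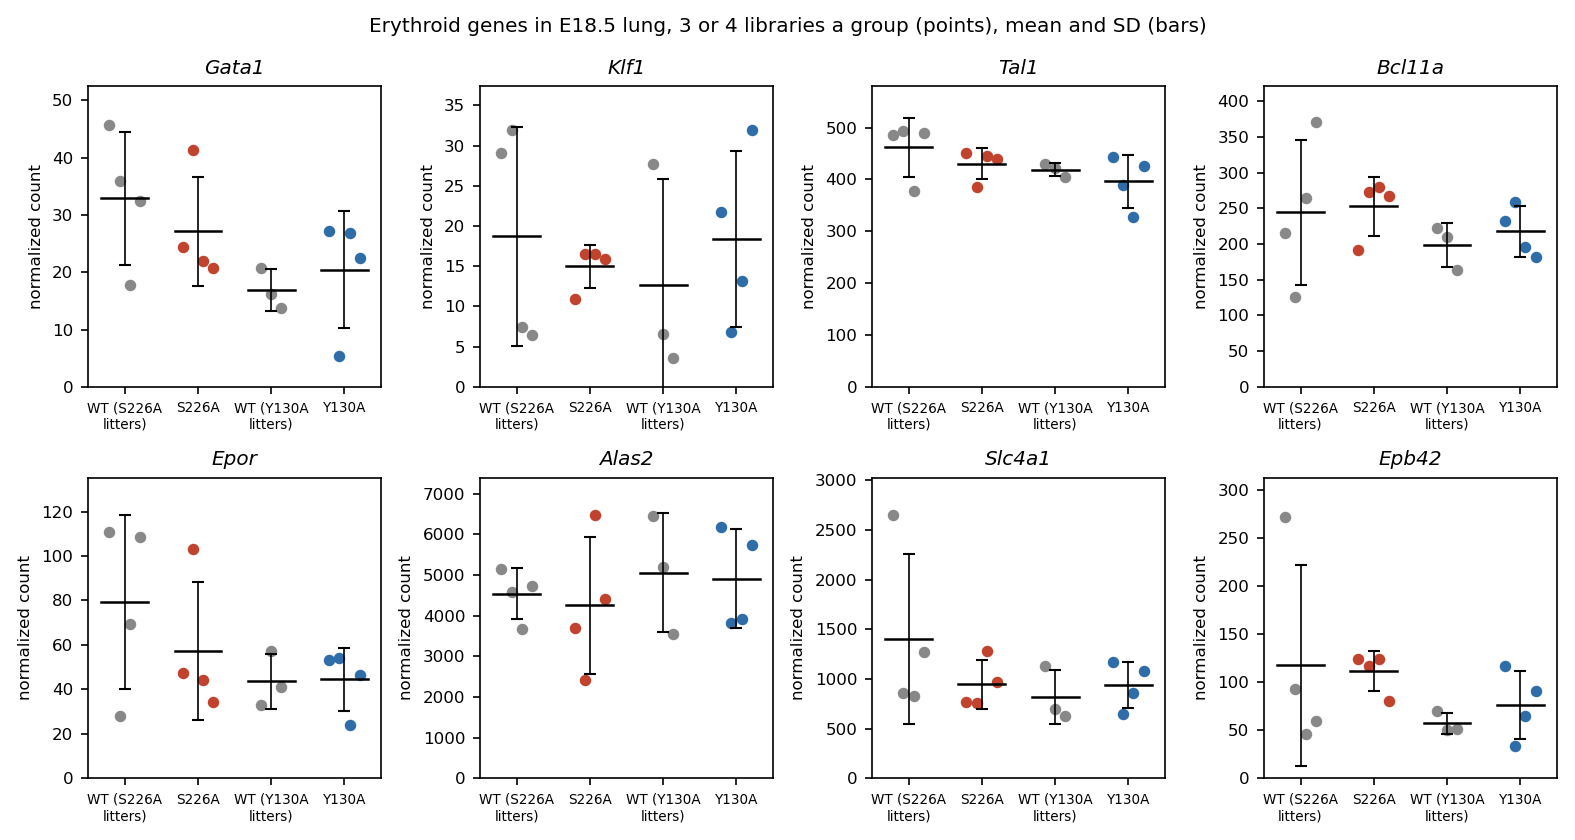
Normalized counts of the 8 genes in E18.5 lung, with points for the 3 or 4 libraries of each group and bars for the mean and SD (cut at 0 for Klf1 in wild types of Y130A litters). Replicate 1 of the wild types of S226A litters is the highest point for Slc4a1 (2649) and Epb42 (272), and the groups overlap for every gene.

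In brain, 0 of 8 genes were called in S226A (0.243% of all genes) and 0 in Y130A (0.00592%), with 0 by DESeq2 and 0 at an unadjusted p below 0.05 (2.27% and 2.22%). Bcl11a, which neurons express, varied little between brains. It had 4015, 3865, 4213 and 3812 normalized counts in wild-type and 3639, 4065, 4062 and 4432 in S226A brains (log2 fold change 0.03, SE 0.16, 95% confidence interval -0.29 to 0.35). In the Y130A set it had 4023, 3703, 3238 and 3885 against 4299, 3834, 3991 and 4197 (0.14, SE 0.16, 95% confidence interval -0.18 to 0.45). In the Y130A litters the mutant was higher in 4 of 4, by 0.050 to 0.30 on the log2 scale. Mutant and wild-type brains overlapped in both sets, as they did for Tal1 at 391 to 604 normalized counts over all 16 brains.

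Alas2 varied more, from 305 to 780 normalized counts in the S226A set (log2 fold change -0.19, SE 0.28) and from 465 to 1469 in the Y130A set (0.01, SE 0.27). Slc4a1 had 77.0, 105, 95.7 and 186 in wild-type and 43.4, 138, 110 and 51.3 in S226A brains (-0.45, SE 0.45), and 250, 138, 65.3 and 38.7 against 204, 161, 65.0 and 70.9 in the Y130A set (0.02, SE 0.39). For both genes the embryos of a group differed more than the groups did. Klf1 had 3 to 21 reads per brain, Epor 7 to 20, Epb42 2 to 48 and Gata1 0 to 9, with 0 reads in 3 of 16 brains, so that only large differences between genotypes were detectable in these genes.

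Wild types of the 2 sets of litters were compared as a measure of what differs without a mutation. In liver 0 of 8 genes were called (13.1% of all genes, DESeq2 0, and 2 at an unadjusted p below 0.05, against 28%). Those were Klf1, at 3381 to 3966 normalized counts in S226A litters and 3992 to 6155 in Y130A litters (log2 fold change -0.46, SE 0.21, adjusted p = 0.142), and Bcl11a (0.36, SE 0.16, adjusted p = 0.130). With the livers alone and without those with squamous transcripts 1 was called, Epb42 (-0.28, SE 0.079, adjusted p = 0.0382), where 6.88% of all genes were. The difference of Klf1 between the wild types of the sets was larger in size than that of either mutant from its littermates, which was not tested. In lung 1 of 8 was called (20.1% of all genes) and 3 had an unadjusted p below 0.05 (Gata1, Epor and Epb42, against 31.6%). The gene called was Epor, at 79.2 against 43.7 normalized counts (0.84, SE 0.30, adjusted p = 0.0408), with overlapping groups. The Epor call was lost with only the libraries compared (adjusted p = 0.286), and on leaving out lung 1 (0.169), 3 (0.0550) or 4 (0.176) of the S226A litters or lung 1 (0.184) or 3 (0.116) of the Y130A litters. Other genes crossed the threshold with a lung left out, namely Epb42 (1.06, adjusted p = 0.0549) without lung 2 (0.0390), 3 (0.0197) or 4 (0.0303) of the S226A litters, Gata1 (0.97, 0.0741) without lung 3 of these (0.0430), Bcl11a without lung 2 of these (0.0314), and Klf1 without lung 1 of the Y130A litters (1.91, 0.0165). These calls in lung changed with single libraries. In brain 0 were called (5.98% of all genes, DESeq2 0, and 0 at an unadjusted p below 0.05, against 18.4%).

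Among all genes tested, those most like each of the 8 over the 47 libraries were found by Pearson's r of log2(CPM + 1), a description that follows the difference between tissues. Those most like Gata1 included Rhd (r = 0.997) and Cpox (0.997). Epb42 was closest to Kel (0.998), Slc4a1 to Nfe2 (0.995), and Epor to Kel (0.993). Alas2 was closest to the adult globins Hba-a1, Hbb-bt and Hbb-bs (0.996 each). Klf1 was closest to the liver gene F9 (0.997), Tal1 to Eif2ak1, the haem-regulated kinase (0.995), and Bcl11a to Tbc1d24 (0.990).

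Within liver, after subtraction of group means, other genes came to the fore. Alas2 varied with Fech, the last enzyme of haem synthesis (r = 0.927 over 16 livers), and with Hba-a1 (0.917) and Hbb-bs (0.903), and Epb42 varied with Tmcc2 (0.918) and Hemgn (0.911). Gata1 varied with Mphosph6 (0.965) and Tpx2 (0.957), a gene of the mitotic spindle, Klf1 with the mitotic cyclin Ccnb1 (0.942), Slc4a1 with Rbm38 (0.948), Tal1 with Trim27 (0.963), Epor with Eef1akmt2 (0.930) and Bcl11a with Mtss1l (0.889). Among the 8 themselves, the highest values were those of Gata1 with Epor (0.862), Gata1 with Tal1 (0.804), Tal1 with Epor (0.759) and Slc4a1 with Epb42 (0.748), and the lowest that of Bcl11a with Alas2 (-0.23). The points share their libraries and scaling. Each partner outside the 8 was picked as among the most alike of all genes tested, over 16 livers. Such a choice gives high values by itself, and the values were not tested against chance. Rap1a (0.943 with Gata1), Zfp105 (0.924 with Klf1) and Fsd1l (0.909 with Klf1) were also among those picked. A link of Gata1 or Klf1 to cell division was not tested.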

How the data were processed

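The authors aligned reads of liver, lung and brain RNA to GRCm38 with STAR (2.6.0b per the labels), after Trim Galore 0.6.5 and FastQC 0.11.5, counted them per gene, and deposited raw whole-number counts without normalization. The strand setting of the counting was not given in the sources used here. Groups follow the titles, and mutants were compared with wild types of their own litters. The 8 genes and the gene lists were chosen with earlier results of these data known.

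Counts of 20456 genes were fitted in edgeR 4.0.16 (R 4.3.3) with TMM scaling, filterByExpr (minimum count 10, minimum total 15) and 1 coefficient for each of 12 groups over 47 libraries, leaving 16892 genes. Quasi-likelihood p-values were adjusted over all of them by the Benjamini-Hochberg method, and called means an adjusted p below 0.05. Intervals are at 95%. Stringent criteria were an adjusted p below 0.01, a log2 fold change beyond 1 and a standard error below 1. RPKM used exon lengths of GENCODE M21 (20424 genes matched). The script was tested on simulated data. Named genes were the 8, up to 3 of each list with the lowest adjusted p in a comparison, listed genes whose groups did not overlap, and the 3 most alike to each of the 8 (some of these are not reported here). Adult globins, and genes called with only the livers fitted, were named after their values were seen. The 8 litters gave 17 embryos. Residuals of littermates correlated above 0.1 in 18 of 23 pairs (median 0.213) and in 5 of 69 other pairs (median -0.061), and the litter is given in the titles. Alternatives were DESeq2 1.42.0, RLE size factors, no TMM scaling, no filter, only the libraries compared, the stringent criteria, each library left out, and litter or embryo as block. Fits of 1 tissue, without 2 livers with squamous transcripts, and with both choices, were added after seeing the data. Totals of 15722147 to 54885020 counts set the precision, and sequences came from RefSeq (GRCm38.p6). Reads carried no molecular identifiers.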

Additional observations from a re-analysis of the deposited data

Results flagged for a closer look

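Of 99 sets of 4 libraries (the 8 genes and Daxx in each group of 4), 9 held a library far from the other 3 by Dixon's ratio, where chance gives about 1 in 20. In liver, Tal1 in wild types of S226A litters was lowest in replicate 1, at 5354 normalized counts against 6682 to 6924, and it was this library that overlapped the S226A livers. Daxx in Y130A liver was highest in replicate 1, at 1289 against 1096 to 1120, the liver with squamous transcripts. In lung, Tal1 in wild types of S226A litters was lowest in replicate 3 (377 against 486 to 493). In S226A lung, Bcl11a was lowest in replicate 1 (191 against 267 to 279), Klf1 in replicate 1 (11.0 against 15.9 to 16.5) and Epb42 in replicate 4 (80.6 against 117 to 124). In brain, Daxx in wild types of S226A litters was highest in replicate 1 (1245 against 1042 to 1074), Epb42 in S226A was highest in replicate 2 (13.8 against 2.07 to 3.71) and Epor in S226A was highest in replicate 3 (19.8 against 8.07 to 9.31). The last 2 rest on few reads, and no cause was tested.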

How the results depend on the processing

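No result changed direction past the threshold. Of the 8 genes, 1 was called in S226A liver, against 0 with the stringent criteria, 0 without TMM scaling, 3 with only the libraries compared, 3 with only the libraries of the tissue, 0 without the livers with squamous transcripts, 0 with only the libraries of the tissue and without these livers, and 0 to 1 with each library left out. Fitted without lung and brain, all genes called there numbered 1258 (tissue), 1110 (tissue, without the livers with squamous transcripts) or 1130 (compared) rather than 1972. In Y130A liver they numbered 8 or 5 rather than 46, 299 with DESeq2, 98 with litter as block, 13 with only the livers and without those with squamous transcripts, and 75 without the livers with squamous transcripts. In wild-type liver of S226A against Y130A litters, 0 were called, against 1 with only the libraries of the tissue and without the livers with squamous transcripts. In wild-type lung of S226A against Y130A litters, 1 was called, against 0 with the stringent criteria, 2 with RLE size factors, 0 without TMM scaling, 0 with only the libraries compared, 0 with only the libraries of the tissue, 2 with DESeq2, and 0 to 3 with each library left out (0 without replicate 1 of the S226A litters or replicate 3 of the Y130A litters, 3 without replicate 2 and 2 without replicate 3 of the S226A litters). Between lung and brain, the count of 8 became 6 with the stringent criteria, 7 without TMM scaling, 7 with only the libraries compared and 7 to 8 with each library left out. With litter as replicate block, 1 of the 8 was called in S226A liver and 0 in the other mutant comparisons and interactions, and no call changed in 48 mutant and 24 interaction results, nor with embryo as block in 24 tissue results. For the wild types of S226A against Y130A litters alone, the fit could not be paired. No paired analysis was possible because the wild types of these 2 sets come from different litters. Low counts limit Gata1, Klf1, Epor and Epb42 outside liver, and 5 of 48 mutant results could not be fitted with only the libraries compared, because the gene failed the filter.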
